A study of Mus musculus with 384 samples.

Results

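Tumour necrosis factor (Tnf), its receptors Tnfrsf1a and Tnfrsf1b, the related ligand Tnfsf9, the adaptor Traf1 and the TNF-induced gene Tnfaip2 were followed in mouse macrophages. They are 6 of the 23481 genes in the deposited count table. They were taken by name, and all 6 passed the filter on low counts, which left 10562 genes. The cells were bone-marrow-derived macrophages (BMDM), grown in culture from the marrow of 13-week-old male C57BL/6 mice. The bones were either WT or from Myd88 KO mice, the only alleles the labels name. All cells, WT and KO alike, had been transduced with a pool of pathway reporter viruses on day 4 and replated on day 9. A well got 1 of 12 ligands of innate receptors and was harvested at 0, 0.5, 1, 1.5, 2, 2.5, 3 or 4 h. The ligands, as labelled, were Pam3Cys, R848, CpG, FLA, LPS, MDP/LPS, Zymosan, Poly(I:C), SeV, TDB, MDP and HT-DNA. Each genotype filled 2 plates of 96 wells (replicates 1 and 2), so each ligand and time had 1 well per plate and n = 2 per genotype. Nothing in the labels ties plates to different animals or cultures. The p-values therefore measure the spread between the 2 plates of a genotype, pooled over all ligands and times, and this spread may be technical. The comparison of genotypes at time 0 uses the same pooled spread. Genotype cannot be told apart from plate.

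TNF is a trimeric cytokine made as a membrane protein and shed from activated macrophages. It signals through TNFR1 (Tnfrsf1a), whose death domain recruits TRADD, RIPK1 and TRAF2, and through TNFR2 (Tnfrsf1b), which binds TRAF2 and TRAF1 without a death domain. Toll-like receptors switch the Tnf gene on within minutes through NF-kB and MAP kinases. Most of them use the adaptor MyD88, while TLR3, the receptor for double-stranded RNA, uses the adaptor TRIF, and TLR4, the LPS receptor, uses both. The Tnf messenger is short-lived because AU-rich elements in its 3′ untranslated region bind tristetraprolin (Zfp36), which brings in deadenylases.

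The AU-rich stretch is shown because the fall of the Tnf transcript after its peak is followed below. The part of the stretch in that fall was not tested. The mm10 annotation places Tnf on the minus strand at chr17:35199381-35202007, and its 3′ untranslated region is 764 bases long. It holds 8 copies of the pentamer ATTTA and 5 of the nonamer TTATTTATT, counted on the transcript strand with overlaps allowed. Over 21020 genes, 65.2% of 3′ untranslated regions hold the pentamer, 7.66% the nonamer, and 42 genes (0.2%) hold 5 nonamers or more. None of the other 5 genes holds the nonamer, although Tnfsf9 also fell after its peak, as given below. Tnfrsf1a has 0 pentamers in 490 bases, Tnfrsf1b 2 in 2324, Tnfsf9 2 in 253, Tnfaip2 2 in 1456 and Traf1 3 in 2123. The 30 bases with the most pentamers, all on the minus strand at chr17:35199679-35199708, are given 5′ to 3′ with the pentamers in capitals.
Tnf AU-rich stretch: attATTTAttATTTATTTAttATTTATTTA

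The promoter windows of Tnf and Tnfaip2 are shown because Tnf carries the early peak and Tnfaip2 had the largest late change with LPS in WT among the 6 genes. Each runs from 250 bases before to 50 after the start site (RefSeq, GRCm38.p6), and 5 of the 6 genes matched such a window. Motifs were searched on both strands for the NF-kB consensus, the TATA box written TATAAA, the AP-1 site written TGANTCA, the Egr site written GCGNGGGCG and the Ets site written CCGGAAG. Over 32851 windows the shares holding them were 8.46%, 13.6%, 7.81%, 5.55% and 8.86%. The Tnf window, minus strand at chr17:35201958-35202257, holds TATAAA (capitals) from -29 to -24. The Tnfaip2 window, plus strand at chr12:111442411-111442710, holds an NF-kB consensus match (capitals, read on the minus strand) from -24 to -15. Ets matches lie from -178 to -172 in the Tnfrsf1b window and from -10 to -4 in the Tnfrsf1a window. For Tnfaip2 and Tnfrsf1a the start site of the window differs from the gene start in the mm10 annotation used for gene positions. There Tnfaip2 starts at chr12:111442469 and Tnfrsf1a at chr6:125349362, so the NF-kB and Ets matches of these genes lie inside the annotated gene. A match is a description of letters, not a measured binding site.
Tnf promoter: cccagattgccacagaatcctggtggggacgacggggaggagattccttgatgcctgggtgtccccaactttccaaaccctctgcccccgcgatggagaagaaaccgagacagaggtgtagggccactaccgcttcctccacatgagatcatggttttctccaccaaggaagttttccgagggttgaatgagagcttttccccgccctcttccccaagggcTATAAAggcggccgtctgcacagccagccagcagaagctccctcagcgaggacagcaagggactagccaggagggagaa
Tnfaip2 promoter: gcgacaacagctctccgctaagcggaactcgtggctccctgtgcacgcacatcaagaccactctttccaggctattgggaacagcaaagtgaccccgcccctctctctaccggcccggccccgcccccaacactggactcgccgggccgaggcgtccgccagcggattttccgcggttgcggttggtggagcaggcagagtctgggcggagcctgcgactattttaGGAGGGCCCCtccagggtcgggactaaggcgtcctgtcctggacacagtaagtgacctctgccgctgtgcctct

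Wells held 71720 to 767167 counts with a median of 342561. The shallowest were the R848 wells of KO replicate 2 (83325 to 118731), and 17 wells lay under 150000. Levels are given as CPM, counts per 1000000 counts of the well. For the tests, counts of a plate were added up over the 12 time 0 wells, over the wells at 0.5 and 1 h of a ligand (called early here) and over those at 2.5, 3 and 4 h (called late). A gene was called at an adjusted p under 0.05 (edgeR quasi-likelihood test, Benjamini-Hochberg adjustment over 10562 genes). Log2 changes carry a standard error (SE). The 8 macrophage markers in the table summed to 3502 to 3691 CPM per plate over all its wells, against 128.5 to 152.6 for 6 neutrophil markers. T cell, stromal, dendritic and mast cell lists stayed between 0.3027 and 12.94 CPM, with Cd3g, Col3a1, Flt3, Cd209a and Fcer1a at 0. Some markers differed by genotype: the dendritic cell list summed to 12.94 and 11.16 CPM in WT and 6.683 and 6.86 in KO, most of it Xcr1, and Itgam, a macrophage marker, stood at 295.1 and 330.5 CPM in WT and 176 and 204.5 in KO. The mast cell list summed to 5.171 and 5.083 CPM in WT and 6.992 and 10.26 in KO. The part of these differences in the results was not tested. Myd88, the targeted gene, was at 30.4 and 35.04 CPM in the WT plates at time 0 and at 14.49 and 17.01 in the KO plates. In late LPS wells it was at 81.99 and 80.91 in WT and at 12.36 and 6.766 in KO. KO plates lay below WT plates in both classes but were not at 0, and the labels do not say which part of the gene was deleted, so 3′ counts may lie outside it.

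Before stimulation, Tnf was about 5 times lower in KO than in WT macrophages. Over the 12 time 0 wells of a plate it stood at 254.4 and 269.3 CPM in the WT plates and at 53.05 and 54.32 CPM in the KO plates, so the plate sums of the genotypes did not overlap, although the highest KO well (148.7 CPM) lay above the lowest WT well (141.3 CPM). The difference was -2.31 on the log2 scale (SE 0.51, edgeR adjusted p = 0.0108, lower in 4 of 4 plate pairings). Tnfaip2 was lower as well, at 438.7 and 551.8 CPM in WT and 257.2 and 221.6 CPM in KO, a difference of -1.08 (SE 0.27, edgeR adjusted p = 0.0444). Of the 6 genes, 2 were called lower in KO, where 0.275% of all genes tested were. Traf1 differed by -1.76 (SE 0.48, edgeR adjusted p = 0.119), Tnfsf9 by -1.46 (SE 0.47, edgeR adjusted p = 0.363) and Tnfrsf1b by -0.70, and none of these passed. Tnfrsf1a, at 81 and 74.19 CPM in WT and 107 and 102.6 CPM in KO, differed by 0.40 (SE 0.36). Fewer cells making a transcript and less transcript per cell cannot be told apart in these bulk wells.

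The time 0 wells were not uniform. In WT replicate 2 the Tnf wells ran from 141.3 to 587.6 CPM with a median of 262.8, and the highest ones carried the CpG and Pam3Cys labels although no time had passed. In WT replicate 1 they ran from 177 to 381.4, in KO replicate 1 from 21.24 to 94.39 and in KO replicate 2 from 7.799 to 148.7. In both KO plates the lowest well carried the Poly(I:C) label. The highest were Zymosan, then LPS, in replicate 1 and LPS, then MDP, in replicate 2. KO means were 14.52 CPM with the Poly(I:C) label, 49.41 with MDP/LPS, 95.15 with Zymosan and 119.8 with LPS, beside 53.69 over all labels. The KO changes given below are measured from all labels together. The CpG-labelled well of WT replicate 2 also held the highest Tnfrsf1b (1123 CPM) and Traf1 (311.1 CPM). The time 0 level of Tnf was 40.1% and 46.89% of the whole-plate level in WT and 45.36% and 51.36% in KO. The part of RNA from other wells in the time 0 values was not tested. When 5% or 10% of each plate's mean profile was subtracted from its wells, 0 of the 6 genes were called at time 0. None was called without WT replicate 1 or without WT replicate 2.

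**Figure D1:**
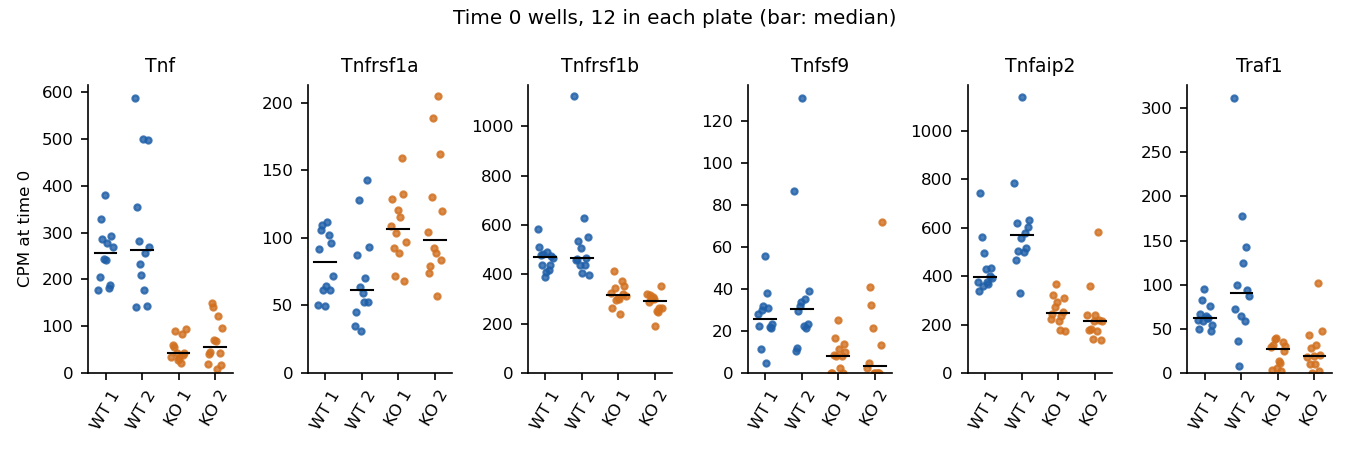
CPM at time 0 (vertical axis) of each gene in the 12 wells of each plate, with a bar at the plate's median. For Tnf the KO wells reach 148.7 CPM at most and the WT wells start at 141.3 CPM, and in WT replicate 2 single wells stand well above the rest.

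In WT cells Tnf was high within the first hour with 8 ligands, and with 7 of them both plates peaked at 0.5 or 1 h. With R848, a small agonist of TLR7, it was highest at 0.5 h (1321 and 1658 CPM in replicates 1 and 2), and with FLA also at 0.5 h (1282 and 1280). With LPS it reached 1044 and 901.9 CPM at 0.5 h and 1482 and 1249 CPM at 1 h. MDP/LPS gave 1652 and 1568 CPM at 1 h, Zymosan, a yeast cell wall preparation, 1676 and 1504, and CpG, the TLR9 ligand, 1411 and 1164. Poly(I:C) started later, with 226.3 and 233.8 CPM at 0.5 h, inside the range of the time 0 wells, and 1362 and 1118 CPM at 1 h. Pam3Cys, a TLR2 lipopeptide, reached 1184 and 742.8 CPM at 1 h, and in replicate 2 the highest well came at 4 h (797.6 CPM). In each of these 8, both plates at the first peak time given stood above every WT time 0 well.

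**Figure D2:**
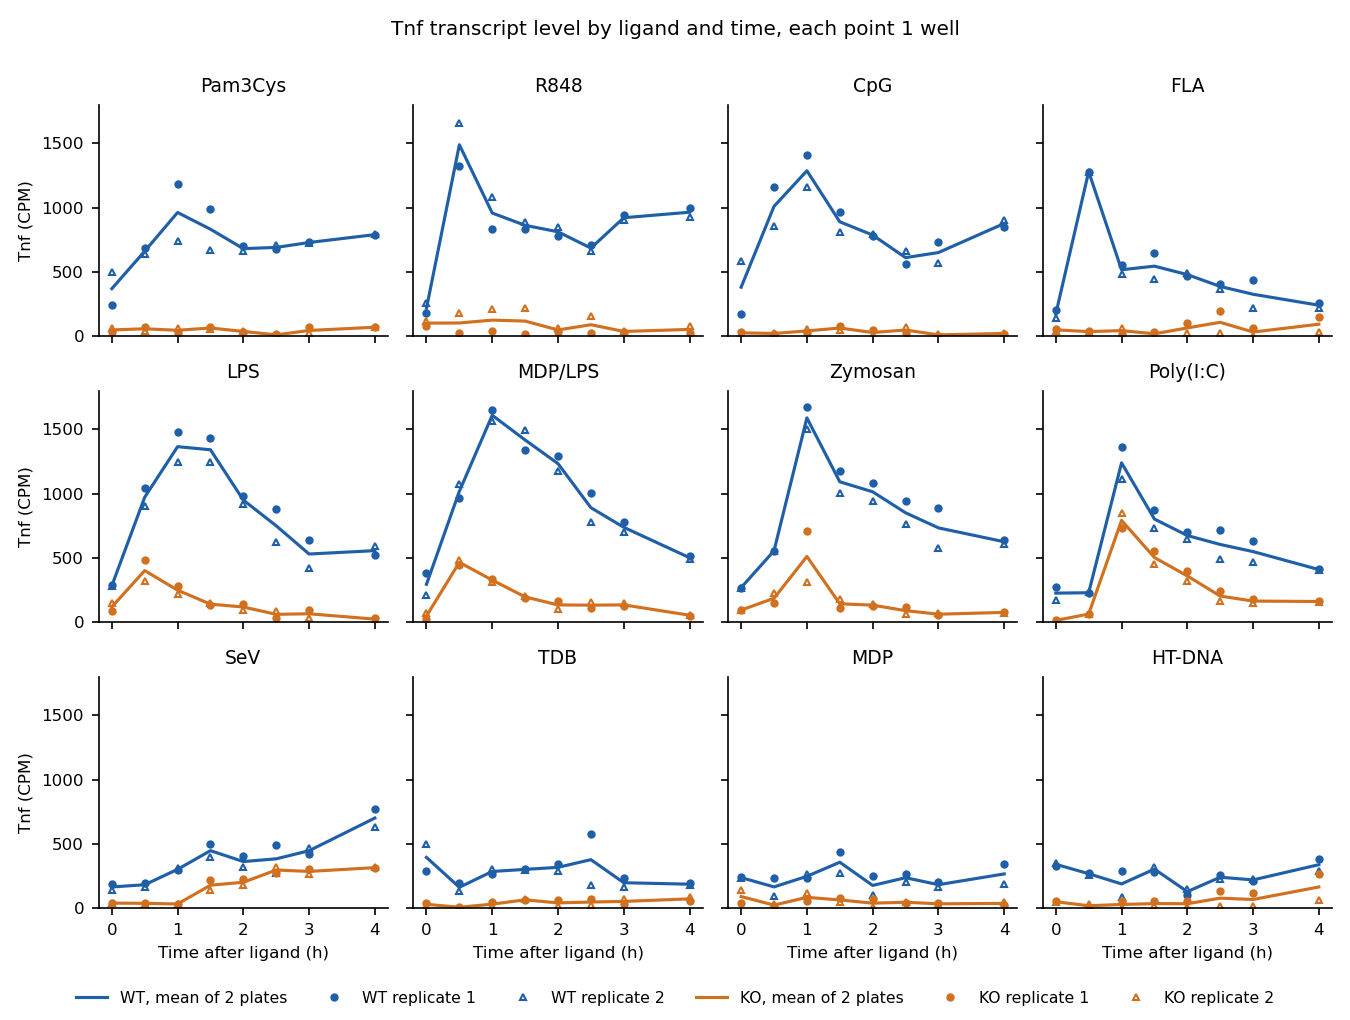
Tnf CPM (vertical axis) against hours after the ligand (horizontal axis) for 12 ligands, with filled circles for replicate 1, open triangles for replicate 2 and lines for the mean of the 2 plates of a genotype. WT wells of both plates peak at 0.5 or 1 h with 7 ligands, with Pam3Cys replicate 1 peaks at 1 h and replicate 2 at 4 h, and KO wells show an early peak with LPS, MDP/LPS, Zymosan and Poly(I:C) and a late rise with SeV.

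Against time 0, the early rise in WT was called with 5 of 12 ligands. It was 2.43 with MDP/LPS (edgeR adjusted p = 0.00157, with 0.625% of all genes called higher), 2.27 with LPS (0.00547, 0.492% of genes) and 2.26 with R848 (0.00616, 0.445% of genes). It was 2.22 with CpG (0.00864, 0.473% of genes) and 2.00 with Zymosan (0.0338, 0.36% of genes), with an SE of 0.49 or 0.50 in each of the 5 and the same direction in 2 of 2 plates. The changes with FLA (1.73), Pam3Cys (1.71) and Poly(I:C) (1.33) did not pass after adjustment, although 8 of 12 ligands stood at an unadjusted p under 0.05. One estimate of the spread of Tnf served both genotypes, and with WT fitted alone 8 of 12 ligands were called. Without WT replicate 1 or without WT replicate 2, 0 ligands were called, and without either KO plate 8 were.

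In KO cells an early Tnf rise was called with Poly(I:C), LPS, MDP/LPS and Zymosan. With Poly(I:C) it went from 63.29 and 65.37 CPM at 0.5 h to 736.4 and 849.1 CPM at 1 h, which is 63.93% of the WT mean at that time. With LPS it was highest at 0.5 h (481.3 and 323.3 CPM), 41.35% of WT, and had dropped to 282 and 217.7 CPM at 1 h, 18.29% of WT. MDP/LPS also peaked at 0.5 h in KO (445 and 487.3 CPM, 45.76% of WT), and at 1 h stood at 340.5 and 316.5 CPM, 20.4% of WT. Zymosan peaked at 1 h, with 709.3 CPM in replicate 1 and 315.1 CPM in replicate 2, a wide gap. So in both KO plates the LPS and MDP/LPS peaks came at 0.5 h, whereas in both WT plates they came at 1 h, a difference in timing read from single wells and not tested. In WT replicate 2 the LPS values at 1 and 1.5 h were nearly equal (1249 and 1248 CPM).

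The early rise in KO was called with these 4 ligands: 3.02 with MDP/LPS (SE 0.52, edgeR adjusted p = 5.16e-05, 0.596% of genes called higher), 2.86 with Poly(I:C) (SE 0.52, adjusted p = 0.000262, 0.398% of genes), 2.75 with LPS (SE 0.52, adjusted p = 0.000458, 0.502% of genes) and 2.57 with Zymosan (SE 0.52, adjusted p = 0.00221, 0.35% of genes). The genotypes compared differently on different scales. Early LPS wells held 6.178 times the CPM of all time 0 wells together in KO and 4.437 times in WT. As added transcript the same wells held 278 CPM above time 0 in KO and 900 CPM in WT. The test of the difference between the log2 changes gave 0.48 with LPS, 0.58 with MDP/LPS, 0.56 with Zymosan and 1.52 with Poly(I:C), each with an edgeR adjusted p of 1. With LPS, MDP/LPS and Zymosan the sign of that difference turned under at least 1 other choice of time 0 wells or time classes. The 4 KO calls fell to 0 without WT replicate 1, without WT replicate 2 or with KO fitted alone.

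With CpG, Pam3Cys, FLA and R848 no Tnf rise was called in KO. Early CpG wells stood at 22.39 and 39.03 CPM in KO and at 1254 and 1024 CPM in WT, so KO held 2.696% of the WT level. Pam3Cys wells held 49.24 and 53.41 CPM in KO (6.339% of WT) and FLA wells 32.23 and 46.67 CPM (4.622% of WT). These KO values lie within the range of the KO time 0 wells. With R848 the KO plates parted, with 32.42 CPM in replicate 1 and 197.8 CPM in replicate 2, the plate whose R848 wells were the shallowest. The early level was called lower in KO with 7 of 12 ligands: CpG (-5.34, SE 0.61, edgeR adjusted p = 3.05e-10, 1.32% of genes called lower), FLA (-4.47, 1.42%), Pam3Cys (-4.16, 2.12%), R848 (-3.72, 1.27%), TDB (-3.56, 0.246%), HT-DNA (-3.30, 0.151%) and SeV (-2.69, 0.189%). These level differences include the difference already present at time 0. Once that was taken out, the difference in early change was called with 0 of 12 ligands (4 at an unadjusted p under 0.05, 1 by DESeq2), and that with CpG was -3.03 (edgeR adjusted p = 0.0832). It was called for 4 ligands without KO replicate 1 and for 4 without KO replicate 2. The count of 7 lower levels was 4 without WT replicate 1, 3 without WT replicate 2 and 11 without either KO plate.

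**Figure D3:**
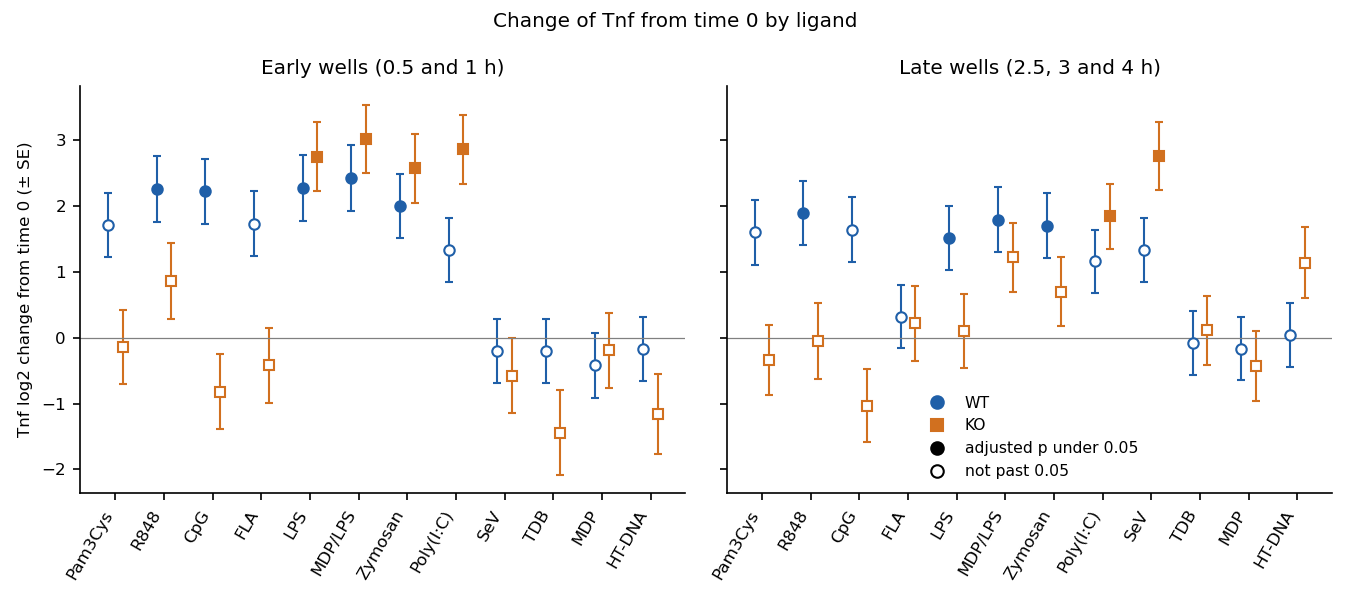
Log2 change of Tnf from time 0 (vertical axis, bars are ± SE) for each ligand, in WT (circles) and KO (squares), with filled symbols for an edgeR adjusted p under 0.05. Early KO changes with LPS, MDP/LPS, Zymosan and Poly(I:C) lie between 2.57 and 3.02, and late KO changes are called with Poly(I:C) and SeV only.

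The share of Tnf left at 4 h in WT was compared among the ligands with high Tnf in the first hour. It was lowest with FLA and highest with R848, CpG and Pam3Cys. SeV, TDB, MDP and HT-DNA are left out of this ranking. The 4 h level was 18.91% ± 2.069 (SD, n = 2) of the plate's own peak with FLA, and 31.22%, 33.37%, 39.48% and 41.32% with MDP/LPS, Poly(I:C), Zymosan and LPS. The FLA wells at 4 h held 261.1 and 223.2 CPM, near the time 0 level of the WT plates (254.4 and 269.3 CPM). With R848 it was 65.9% ± 13.8 and with CpG 68.99% ± 12.17 (SD, n = 2). With Pam3Cys it was 83.15% ± 23.83 (SD, n = 2), where replicate 1 peaked at 1 h and replicate 2 at 4 h. The R848 and CpG courses dipped and came back: R848 wells held 707.7 and 665.4 CPM at 2.5 h and 999.8 and 931 CPM at 4 h, and CpG wells 560.2 and 664.2 CPM at 2.5 h and 852.2 and 903.5 CPM at 4 h. At 4 h the plates of R848 and CpG lay above those of LPS, MDP/LPS, FLA and Poly(I:C).

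In KO less of the peak was left with LPS. KO wells at 4 h held 33.48 and 16.2 CPM, which is 5.982% ± 1.376 (SD, n = 2) of the plate's peak, against 41.32% ± 8.435 in WT. MDP/LPS left 11.84% ± 0.102 in KO and 31.22% in WT, Zymosan 17.1% ± 7.466 and 39.48%, and Poly(I:C) 20.55% ± 2.208 and 33.37% (SD, n = 2). For each of the 4 ligands both KO plates ended below both WT plates on this scale. The scale does not subtract the time 0 level, 254.4 and 269.3 CPM in the WT plates and 53.05 and 54.32 CPM in the KO plates. A higher starting level raises the share left, and its part in the gap was not tested. Poly(I:C) wells fell from 1362 and 1118 to 416.4 and 404.2 CPM at 4 h in WT. In KO they fell from 736.4 and 849.1 to 162.8 and 161.2 CPM. A peak is the highest of 8 wells, so these shares are descriptions with no test, and a KO peak rests on fewer counts than a WT peak. Late wells stood below early wells in KO by -2.65 with LPS (SE 0.57, edgeR adjusted p = 0.00138, 0.937% of genes called lower), -1.87 with Zymosan (SE 0.53, adjusted p = 0.0256, 0.956% of genes) and -1.79 with MDP/LPS (SE 0.53, adjusted p = 0.0336, 1.36% of genes). The KO change with Poly(I:C) was -1.02 (SE 0.49) and was not called (edgeR adjusted p = 0.291). In WT 0 ligands were called by edgeR (1 at an unadjusted p under 0.05, 0 by DESeq2), and the LPS change was -0.75 (adjusted p = 0.551), with 3 called when WT was fitted alone and 2 without either KO plate. Whether the fall differs between genotypes was not tested. The 3 KO calls were 0 without either WT plate or with KO fitted alone, and 1 with a plate profile subtracted.

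**Figure D4:**
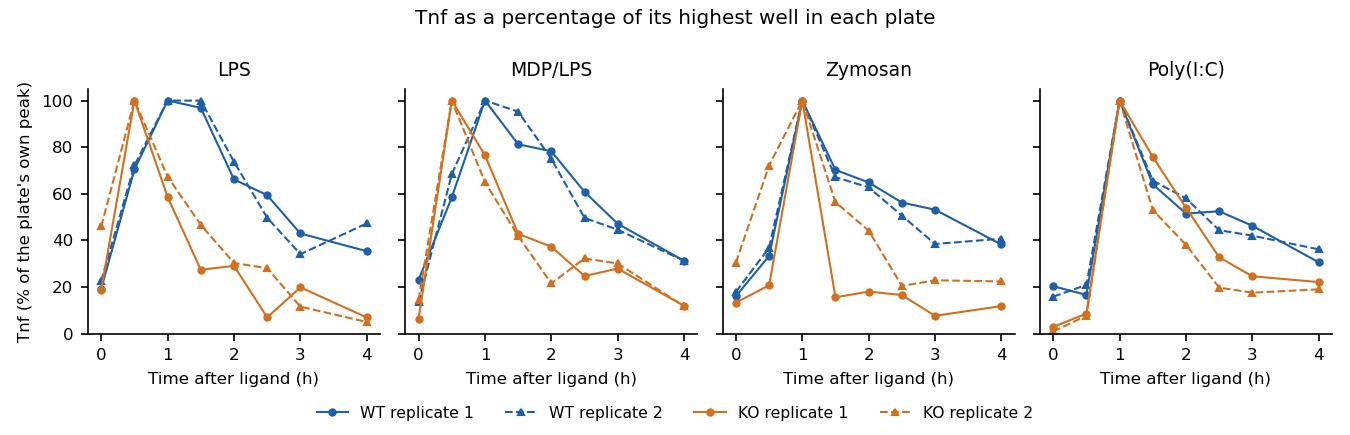
Tnf as a percentage of the highest well of the same plate and ligand (vertical axis) against hours after the ligand, with solid lines for replicate 1 and dashed lines for replicate 2. With LPS and MDP/LPS the KO curves peak at 0.5 h and the WT curves at 1 h, and at 4 h both KO curves end below both WT curves with all 4 ligands. The time 0 level, higher in WT, is not subtracted.

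Late, Tnf was called above time 0 with 4 ligands in WT and with 2 others in KO. The late change in WT was called with R848 (1.89, SE 0.49, edgeR adjusted p = 0.0136, 1.85% of genes called higher), MDP/LPS (1.79, 4.51% of genes), Zymosan (1.70, 3.61% of genes) and LPS (1.51, 4.55% of genes). In KO late LPS wells held 52.54 and 45.67 CPM against 53.05 and 54.32 CPM at time 0 (log2 change 0.10, SE 0.56, edgeR adjusted p = 0.971), and this small change was negative under 4 alternatives, one of them without KO replicate 1 (-0.01). Late KO changes were called with SeV (2.76, SE 0.52, edgeR adjusted p = 7.20e-05, 3.31% of genes) and Poly(I:C) (1.84, SE 0.50, adjusted p = 0.00992, 4.86% of genes). The difference between genotypes in late change was called with 0 of 12 ligands by edgeR (4 at an unadjusted p under 0.05, 1 by DESeq2), and without KO replicate 1 and without KO replicate 2 with 2 and 4. Without WT replicate 1 and without WT replicate 2 the late rise in WT was called with 0 ligands and that in KO with 1. The late rise in KO was called with 3 ligands when KO replicate 1 was left out and with 4 when KO replicate 2 was. The late rise in WT was called with 8 ligands without either KO plate and with WT fitted alone.

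With SeV, Tnf came up last. In KO it held 44.67 and 32.51 CPM at 0.5 h and 31.14 and 35.98 CPM at 1 h, within the range of the time 0 wells, then 220.7 and 138.3 CPM at 1.5 h and 311.3 and 320.9 CPM at 4 h. WT went from 199.3 and 166.5 CPM at 0.5 h to 772.1 and 631.5 CPM at 4 h, the highest SeV well in both WT plates. Late KO wells lay above early KO wells by 3.34 (SE 0.58, edgeR adjusted p = 1.70e-05, 3.5% of genes called higher), a call that held in every alternative run, and held 56.22% of the WT level. With TDB, MDP and HT-DNA no change of Tnf was called in either genotype, early or late. HT-DNA wells of KO replicate 1 rose to 268.8 CPM at 4 h while replicate 2 held 62.82 CPM, and the late HT-DNA wells of replicate 1 were shallow, with 95149 to 185982 counts.

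Tnfsf9 encodes 4-1BB ligand, a TNF family member that co-stimulates T cells, and lies on the plus strand at chr17:57105325-57107757. Its course was the one most like that of Tnf among the 6 genes by correlation, but less of its peak was left at 4 h in WT. With R848, CpG and Pam3Cys it kept 13.3%, 18.72% and 20.64% of the plate's peak, where Tnf kept 65.9%, 68.99% and 83.15%. With LPS it kept 16.89%, where Tnf kept 41.32%. These shares are described with no test. Tnfsf9 stood at 25.91 and 31.57 CPM in the WT plates at time 0 and at 8.949 and 12.18 CPM in the KO plates. In early WT wells it held 264 and 270.5 CPM with LPS, 281.2 and 365.1 CPM with MDP/LPS and 231.7 and 246.4 CPM with Zymosan. In KO the same wells held 190.3 and 147.3, 178.7 and 339.2, and 129.1 and 100.9 CPM. The early rise was called with 8 of 12 ligands in WT, from 1.96 with Poly(I:C) (edgeR adjusted p = 0.0242) to 3.60 with MDP/LPS (adjusted p = 1.07e-08), that is with the 8 ligands named above for Tnf in the first hour. The shares of all genes called higher with Poly(I:C), FLA and Pam3Cys, not needed for Tnf above, were 0.189%, 0.294% and 0.407%. In KO it was called with 4 ligands: MDP/LPS (4.70, SE 0.51, edgeR adjusted p = 1.95e-12), LPS (4.11), Zymosan (3.48) and Poly(I:C) (3.06), the same 4 as for Tnf.

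Early Tnfsf9 was low in KO with CpG (7.07 and 8.279 CPM against 191.3 and 196.7 CPM in WT) and FLA (5.687 and 3.889 against 141.5 and 143.3). The difference between genotypes in early change was called with CpG alone, at -3.31 (SE 0.76, edgeR adjusted p = 0.0306), where 0.142% of genes were called lower. That call was lost without WT replicate 1, without WT replicate 2 and without KO replicate 2, and with time 0 taken from the CpG-labelled wells only the value was 0.48. The CpG-labelled KO wells at time 0 held 0 and 1 counts of Tnfsf9, so the value of 0.48 is set by wells at the floor. The late level of Tnfsf9 was lower. In late wells it stood at 97.89 and 90.61 CPM with LPS in WT and at 23.18 and 30.45 CPM in KO. In KO the fall from early to late was called with LPS (-2.55, SE 0.52, edgeR adjusted p = 0.000464, 0.937% of genes called lower). It was also called there with MDP/LPS (-1.85, SE 0.47, edgeR adjusted p = 0.0077, 1.36% of genes). In WT the fall was called with FLA (-2.61, SE 0.51, edgeR adjusted p = 0.00163, 0.312% of genes called lower) and R848 (-2.04, SE 0.47, adjusted p = 0.0045, 0.72% of genes). Late calls above time 0 were made with LPS, MDP/LPS and Zymosan in WT and with Poly(I:C), MDP/LPS, SeV and Zymosan in KO, and the WT count of 3 was 1 without WT replicate 1 and 0 without WT replicate 2. Without WT replicate 1 the early rise in WT was called with 1 ligand and without WT replicate 2 with 2.

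Of the receptors, Tnfrsf1b was called higher late with 7 ligands in WT and Tnfrsf1a with 2. Tnfrsf1a, on the plus strand at chr6:125349362-125362484, encodes TNFR1, made by nearly all cell types. It stood at 81 and 74.19 CPM in WT at time 0 and was called higher late in WT with Poly(I:C) at 161.4 and 196.7 CPM (1.40, SE 0.37, edgeR adjusted p = 0.00813, 3.88% of genes called higher) and LPS at 149.8 and 157.5 CPM (1.31, SE 0.38, adjusted p = 0.015). In KO it held 185.5 and 118 CPM in late Poly(I:C) wells against 107 and 102.6 CPM at time 0, and 0 of 12 late changes were called by edgeR (1 at an unadjusted p under 0.05, 0 by DESeq2). The WT count was 0 without either WT plate and 4 without either KO plate, with WT fitted alone or by DESeq2.

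Tnfrsf1b, on the minus strand at chr4:145213463-145246870, encodes TNFR2, whose expression is restricted mainly to immune and endothelial cells. It stood at 468.7 and 503.5 CPM in WT at time 0, with no early change called in either genotype (0 of 12 by edgeR and by DESeq2, 1 in WT and 0 in KO at an unadjusted p under 0.05). It then climbed to 1038 and 1094 CPM in late LPS wells, 1117 and 1309 with Zymosan, 1168 and 1281 with Pam3Cys and 1137 and 1253 with R848. The late change was called with 7 of 12 ligands in WT, from 1.09 with FLA (0.492% of genes called higher) to 1.57 with Zymosan (SE 0.26, edgeR adjusted p = 1.66e-06). The other 5 were LPS, MDP/LPS, R848, Pam3Cys (1.92% of genes) and CpG (1.53% of genes). Late Poly(I:C) wells held 608.2 and 579.1 CPM and late SeV wells 430.9 and 409.5 CPM, and neither change was called. With Poly(I:C) both WT plates were highest at 2 h (734 and 877.5 CPM), outside the late class, and held 454.8 and 476.4 CPM at 4 h. These are single wells, described with no test. In KO the gene stood at 324.3 and 286.8 CPM at time 0, and the late change was called with Zymosan (1.24, SE 0.26, edgeR adjusted p = 0.000221, 3.34% of genes), Poly(I:C) (0.92, SE 0.25, adjusted p = 0.00839) and MDP/LPS (0.87, SE 0.26, adjusted p = 0.0224, 3.38% of genes). Late CpG wells held 372 and 320.5 CPM in KO and 971.1 and 1218 CPM in WT, yet the difference between genotypes in late change was called with 0 ligands by edgeR (4 at an unadjusted p under 0.05, 2 by DESeq2). Without WT replicate 1 the WT calls numbered 0 and the KO calls 1, and without WT replicate 2 they numbered 1 and 2. The difference was called with 1 ligand without either KO plate.

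Traf1, on the minus strand at chr2:34941750-34961772, encodes an adaptor that binds TNFR2 and 4-1BB together with TRAF2. It rose late in both genotypes. It stood at 63.86 and 85.55 CPM in WT at time 0 and reached 281.1 and 224.4 CPM in late LPS wells, while in KO it went from 22.37 and 22.59 CPM to 154.5 and 94.73 CPM. The late rise was called in WT with LPS (2.08, SE 0.48, edgeR adjusted p = 0.00126), Zymosan (1.95) and MDP/LPS (1.93), and in KO with these 3 (2.69, where 3.26% of genes were called higher, 2.79 and 2.92) and Poly(I:C) (2.57, SE 0.50, adjusted p = 6.84e-05). With CpG, late wells held 180.3 and 191.8 CPM in WT and 18.13 and 11.21 CPM in KO. The difference between genotypes in late change was called with 0 ligands by edgeR (3 at an unadjusted p under 0.05, 0 by DESeq2). The WT count was 0 without either WT plate and 7 without either KO plate, with WT fitted alone or with no filter, and the KO count was 4 without either WT plate and 6 without KO replicate 2. Without KO replicate 1 the difference was called with 2 ligands.

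Tnfaip2, on the plus strand at chr12:111442469-111455018, was first named as a TNF-induced gene of endothelial cells and is linked to the exocyst and membrane protrusions. It was higher late than early with LPS in both genotypes and was lower again at 4 h. From 438.7 and 551.8 CPM at time 0 in WT it went to 1390 and 898.7 CPM in early LPS wells and to 3550 and 3333 CPM in late ones. In KO it went from 257.2 and 221.6 CPM to 857.1 and 252.4 CPM early, where the plates parted, and to 1602 and 1056 CPM late. Within the late class the wells fell back: with LPS it peaked at 2.5 h in both WT plates (4765 and 3936 CPM) and stood at 2887 and 3004 CPM at 4 h. In KO it peaked at 3 h in replicate 1 (2060 CPM) and at 2 h in replicate 2 (1948 CPM) and stood at 1153 and 728.9 CPM at 4 h. With Zymosan 49.45% and 55.14% of the 2.5 h peak was left at 4 h in WT. These are single wells, described with no test. The late change with LPS was 3.12 in WT (SE 0.29, edgeR adjusted p = 2.71e-16) and 2.70 in KO (SE 0.29, adjusted p = 2.92e-13). Late changes were called with 9 of 12 ligands in WT, from 1.25 with SeV (2.53% of genes called higher) to 3.12, all but TDB, MDP and HT-DNA. In KO they were called with 7: Zymosan (2.71), LPS, MDP/LPS (2.59), Poly(I:C) (2.25), SeV (1.67), MDP (1.31, 0.189% of genes) and TDB (1.23, 0.473% of genes).

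Tnfaip2 was the gene of the 6 with called differences between genotypes in late change. It was -2.75 with Pam3Cys (SE 0.39, edgeR adjusted p = 5.37e-07, 0.483% of genes called lower), -2.32 with CpG (0.464% of genes), -2.21 with FLA (0.0757% of genes) and -2.16 with R848 (0.464% of genes). Late Pam3Cys wells held 3271 and 3508 CPM in WT and 295.6 and 236.7 CPM in KO. Late FLA wells held 1564 and 1395 CPM in WT and 175 and 142.6 CPM in KO, and the early difference with FLA was called too (-1.89, SE 0.39, edgeR adjusted p = 0.0137, 0.0284% of genes). Late Poly(I:C) wells held 1298 and 2010 CPM in WT and 1234 and 822 CPM in KO, so KO held 62.16% of the WT level. With SeV it held 65.65%, and no difference was called with either ligand. Of the 4 late differences, 0 were called without WT replicate 1 and 1 without WT replicate 2.

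**Figure D5:**
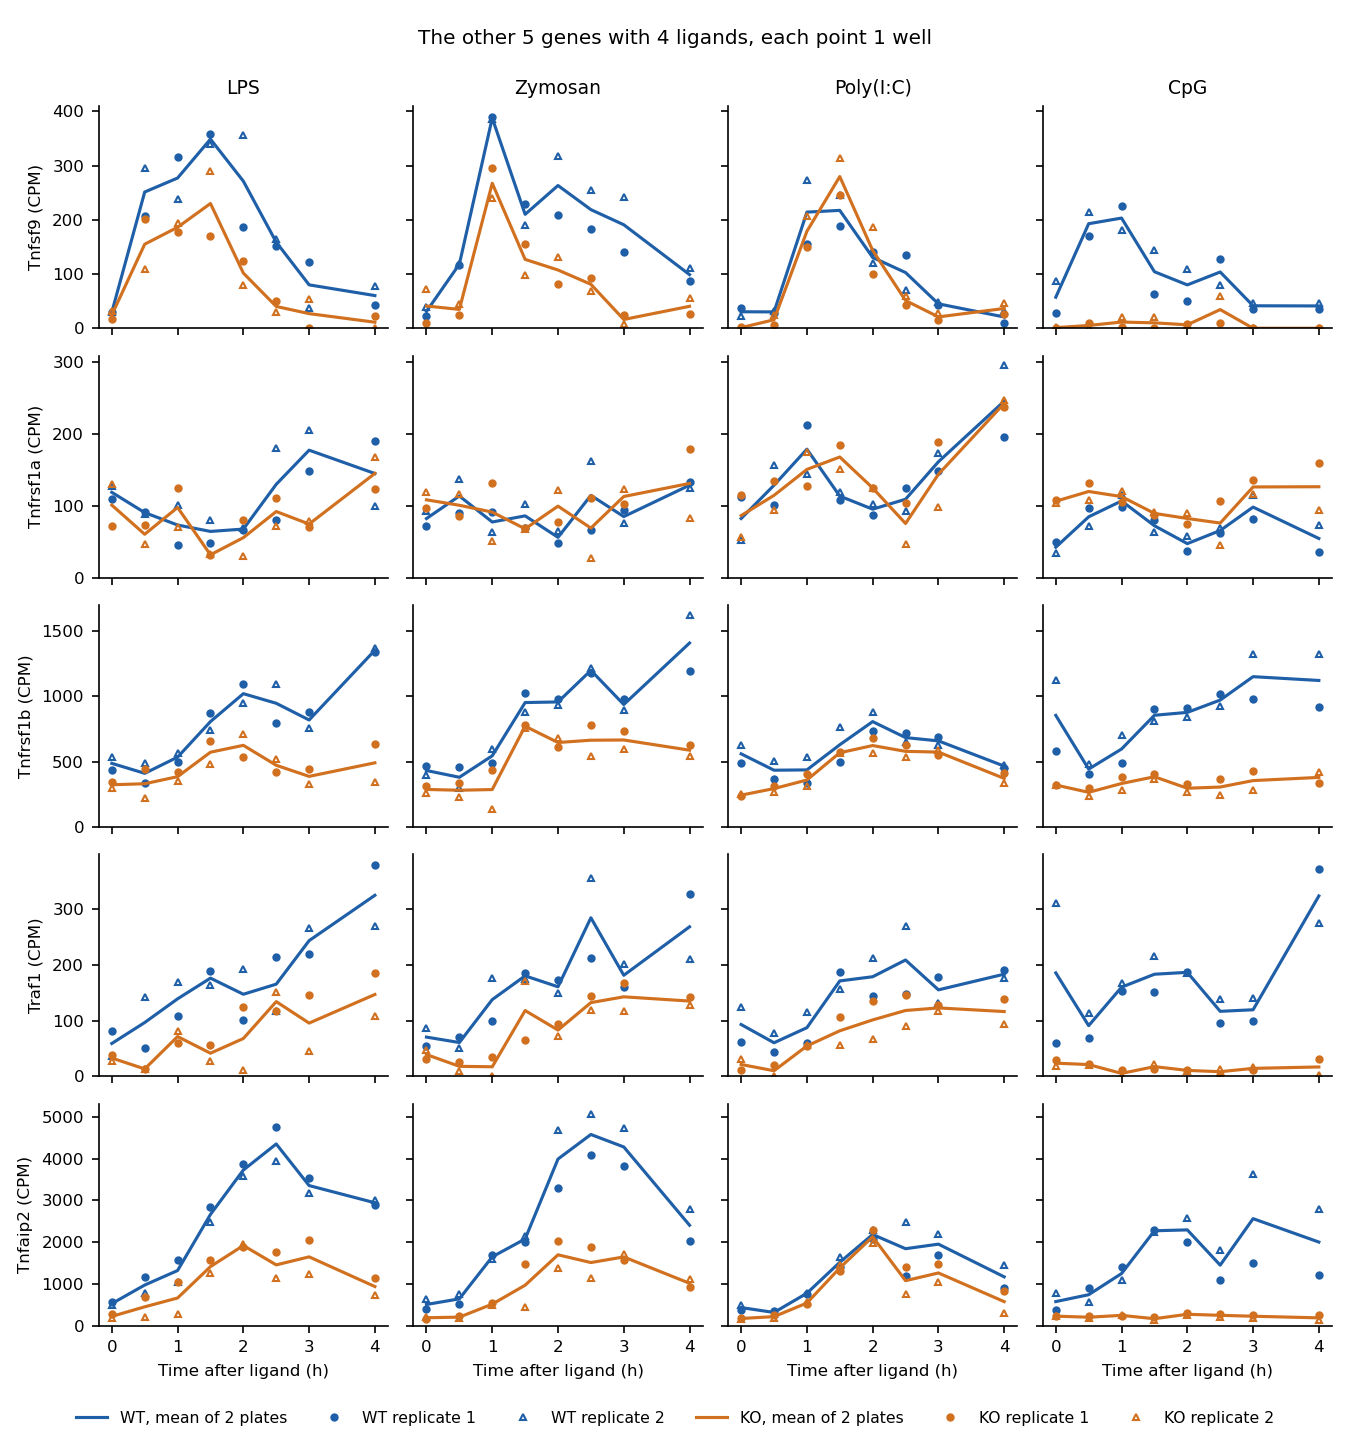
CPM (vertical axes, 1 scale per gene) of Tnfsf9, Tnfrsf1a, Tnfrsf1b, Traf1 and Tnfaip2 against hours after LPS, Zymosan, Poly(I:C) or CpG, with symbols for wells and lines for the mean of the 2 plates. Tnfsf9 peaks at 0.5 to 2 h with LPS and falls back, Tnfrsf1b, Traf1 and Tnfaip2 rise later, and with CpG the KO lines of Tnfsf9, Traf1 and Tnfaip2 stay near their time 0 level.

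The genes around these 6 were read with LPS. Of 10 tested TNF superfamily ligands, Tnfsf9 and Tnf were called higher early in both genotypes, where 0.492% of all genes were in WT and 0.502% in KO. The early median log2 change of these ligands was 0.42 in WT and -0.397 in KO, beside -0.0344 and -0.101 over all genes. Late, Tnfsf15, Tnfsf9 and Tnf were called in WT and Tnfsf15 and Tnfsf10 in KO. Tnfsf10, the death ligand TRAIL, went from 14.9 to 73.0 CPM in KO (2.51, SE 0.64, edgeR adjusted p = 0.00567) and from 23.4 to 55.9 CPM in WT (1.58, adjusted p = 0.13). The median late log2 change of this list was 1.08 in WT and 0.445 in KO, beside -0.129 and -0.124 over all genes, of which 4.55% and 3.26% were called higher. Of 11 tested receptors of the superfamily, Cd40 was the one called early, in KO (1.69, SE 0.43, edgeR adjusted p = 0.0281), and its early change in WT was 1.24 (edgeR adjusted p = 0.317). Late, 4 were called higher in WT (Cd40, Tnfrsf1b, Fas and Tnfrsf1a) and 2 in KO (Cd40 and Fas). The median log2 change of the receptors was 0.166 early and 1.19 late in WT, and -0.284 and 0.22 in KO. Cd40, the co-stimulatory receptor of antigen-presenting cells, went from 52.0 ± 5.1 to 546.0 ± 1.61 CPM in WT (SD, n = 2; log2 change 3.71, edgeR adjusted p = 1.84e-12) and from 23.5 ± 5.85 to 426.0 ± 29.5 CPM in KO (4.40, adjusted p = 5.19e-15). The death receptor Fas rose by 2.44 in WT and 3.29 in KO (edgeR adjusted p = 0.0133 and 0.000912).

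Among 33 tested genes of TNF receptor signalling, Tnfaip3 alone was called early, in both genotypes. Tnfaip3 encodes A20, the ubiquitin-editing brake on NF-kB. It went from 147.0 to 628.0 CPM in WT (2.22, SE 0.36, edgeR adjusted p = 6.51e-06) and from 54.6 to 318.0 CPM in KO (2.66, SE 0.37, adjusted p = 7.94e-08). Late, 9 were called higher in WT (Tnip1, Cflar, Tnip3, Tnfaip3, Traf1, Tab2, Rnf31, Tank and Traf2) and 6 in KO (Tnip1, Traf1, Tnfaip3, Tnip3, Rnf31 and Traf2), and none lower. Cflar, the caspase-8 inhibitor c-FLIP, rose by 1.38 in WT (SE 0.21, edgeR adjusted p = 1.14e-07), and its change of 0.63 in KO did not pass (adjusted p = 0.0551). The list's median change was 0.139 early and 0.381 late in WT, and 0.0946 and 0.552 in KO. Of 6 tested genes named as TNF-induced, Tnfaip2 and Tnfaip3, both already described, were called higher early and late in both genotypes and no other was called. Of all genes, 0.492% in WT and 0.502% in KO were called higher early, and 4.55% and 3.26% late. The median change of the 6 was 0.262 early and 0.285 late in WT, and 0.53 and -0.348 in KO.

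Over 12 tested genes of Tnf release and messenger control, the median change was 0.116 early and 0.376 late in WT, and 0.339 and -0.232 in KO. Zfp36 was the one called early, in both genotypes. It went from 151.0 to 603.0 CPM in WT (2.11, SE 0.28, edgeR adjusted p = 1.11e-08) and from 116.0 to 413.0 CPM in KO (1.95, SE 0.28, adjusted p = 1.19e-07). Late, it was higher by 1.26 in WT and 0.95 in KO (edgeR adjusted p = 0.000442 and 0.0273). In WT Mapkapk2, Zc3h12a and Rhbdf2 were also called higher late, and Zfp36l1 and Zfp36l2 lower, where 1.74% of all genes were. In KO Mapkapk2 was also called higher and Zfp36l2 lower, where 1.15% of all genes were, and Zc3h12a, Rhbdf2 and Zfp36l1 were not called. Zc3h12a, the RNase Regnase-1, went from 12.1 ± 1.93 to 81.3 ± 2.12 CPM in WT (3.06, SE 0.72, edgeR adjusted p = 0.00157) and from 5.5 ± 0.843 to 4.78 ± 1.98 CPM in KO (0.04, SE 0.99; SD, n = 2). The KO level of Zc3h12a was low and the SE of its change wide, so a change there may have been missed. Zfp36l1, a relative of tristetraprolin, changed by -1.75 in WT (SE 0.38, edgeR adjusted p = 0.000327) and by -0.01 in KO. Whether these late changes differ between genotypes was not tested for single genes of the lists. The lists overlap with the 6 genes, and of all their genes 23 were called with late LPS in WT, 3 without WT replicate 1 and 11 without WT replicate 2.

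Likeness of other genes to the pattern of Tnf was Pearson's r of log2(CPM + 5) over 85 WT conditions, which share plates, time 0 and ligands, so it is a description. The 8 highest of 10562 genes were Nfkbia (0.89), Cxcl2 (0.888), Nfkbiz (0.882), Junb (0.861), Cxcl1 (0.86), Pde4b (0.852), Tnfaip3 (0.844) and Gadd45b (0.842). Over the 85 KO conditions their values were lower, from 0.763 for Tnfaip3 to 0.567 for Gadd45b. Tnfsf9 ranked 10 in WT (0.84) and 1 in KO (0.78). Tnfaip2 followed with 0.676 in WT, Traf1 with 0.432 and Tnfrsf1b with 0.331, and Tnfrsf1a was at -0.0612.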

How the data were processed

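RNA was measured by 3′ digital gene expression (a modified SCRB-Seq protocol, per the labels' protocols) in 384 wells. The deposited values are raw counts per gene and well. The authors used BWA and the mm10 build, per the submitters' processing notes. Tool versions, gene annotation and counter: not given in the sources used here. Both members and gene lists were chosen with earlier results of these data known.

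Counts were summed per plate, ligand and time class (0.5 to 1 h early, 1.5 to 2 h middle, 2.5 to 4 h late, and time 0) and fitted in 1 model with edgeR 4.0.16 in R 4.3.3 (quasi-likelihood test, TMM, filterByExpr with a minimum count of 10, Benjamini-Hochberg within each comparison, threshold 0.05). SE is the log2 change divided by the root of F. DESeq2 1.42.0 was an alternative. CPM were computed from the deposited counts. Time 0 sums held 3167670 to 4901235 counts, early sums 207297 to 1048987 and late sums 314684 to 1876446. No 2 wells held identical counts, and all 192 same-condition pairs of plates differed beyond sampling noise. The procedure was tested on simulated counts of early LPS sums, with each gene's spread taken from the trend. For the change in WT it called 0%, 28.4% and 53% of simulated 2-, 4- and 8-fold changes, and 0 unchanged genes. For the difference between genotypes it called 1.5%, 16.4% and 53%, and 2 unchanged genes. A change or difference that was not called may therefore have been missed. Motifs were searched in Python 3.11.15. Deviations of plates with the same genotype did not run together (median correlation 0.017 in WT and 0.0259 in KO over 666 pairs of groups), and replicate numbers do not pair WT with KO plates.

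Named genes are the 6 members, Myd88, up to 4 genes per list with the smallest p in early LPS wells of WT, and the 8 genes most like Tnf. Other list genes were named because they were called, after their values were seen. Otulin, Adgre1 and Ly6g had no row under those names. The result of 1 marker list is not reported here.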

Additional observations from a re-analysis of the deposited data

Results flagged for a closer look

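The following 6 results differed between genotypes by the test of the difference itself (edgeR quasi-likelihood test, KO change minus WT change). Of these, 5 concern Tnfaip2. Its late change was lower in KO by -2.75 on the log2 scale with Pam3Cys, -2.32 with CpG, -2.21 with FLA and -2.16 with R848, and its early change with FLA by -1.89. The early change of Tnfsf9 with CpG was lower in KO by -3.31. The R848 wells of KO replicate 2 and the late FLA wells of KO replicate 1 (71720 to 191899 counts) were among the shallowest, and the part of depth in these values was not tested.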

How the results depend on the processing

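Counts below are ligands called out of 12 unless stated, and where a value moved the cause was not tested. The precision of every call is limited by 2 plates per genotype and by depth, with early sums as low as 207297 counts. Leaving out 1 plate left a group with a lone sum, which was assumed to vary like the other groups.

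Leaving out each plate in turn gave 0 to 3 members called lower at time 0 (2 with all plates), 0 to 8 ligands for the early Tnf rise in WT (5), 0 to 5 in KO (4), 0 to 4 for the difference between them (0) and 3 to 11 for the early Tnf level (7). It gave 0 to 2 for the Tnf fall in WT (0), 0 to 4 in KO (3), 0 to 8 for the late Tnf rise in WT (4), 1 to 4 in KO (2) and 0 to 4 for the difference (0). Late counts in WT, in KO and for the difference ran from 0 to 4, 0 to 0 and 0 to 0 for Tnfrsf1a, 0 to 7, 1 to 2 and 0 to 1 for Tnfrsf1b, and 0 to 4, 3 to 3 and 0 to 0 for Tnfsf9. They ran from 6 to 9, 5 to 7 and 0 to 4 for Tnfaip2, and 0 to 7, 4 to 6 and 0 to 2 for Traf1. The list genes called with late LPS in WT ran from 3 to 27 (23), and the early Tnfsf9 counts from 1 to 8 in WT, 4 to 5 in KO and 0 to 2 for the difference.

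With a replicate block (plate within genotype as a term, spread taken from the fit without it), the late Tnfrsf1b difference was called with 1 ligand in place of 0, and no other count moved by over 1.5 times. With DESeq2 size factors in edgeR, 1 member was called at time 0. With the DESeq2 Wald test the Tnf difference was called with 1 ligand early and 1 late, the late Tnfrsf1a change in WT with 4, the late Tnfrsf1b difference with 2 and late Traf1 in WT with 6. With no filter on low counts, Tnf was called with 8 ligands for the early and 8 for the late rise in WT, 3 and 3 for the early and late difference, 11 for the early level and 1 for the fall in WT, late Traf1 in WT with 7 and the early Tnfsf9 difference with 2.

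With wells in place of plate sums, 5 members were called at time 0. Tnf was then called with 8 ligands early and 8 late in WT, with 1 early and 3 late for the difference and with 1 for the fall in WT. Late Tnfrsf1a was called with 5 in WT and 2 in KO, late Tnfrsf1b with 6 in KO and 4 for the difference, late Traf1 with 7 in WT and 1 for the difference, and the early Tnfsf9 difference with 0. With wells under 150000 counts left out, Tnf was called with 1 early and 2 late for the difference, 11 for the early level and 8 for the late rise in WT, Tnfrsf1a with 4 in WT and 1 in KO, Traf1 with 7 in WT and the early Tnfsf9 difference with 2.

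With 5% of the plate profile subtracted, 0 members were called at time 0, the Tnf fall in KO with 1 and the early Tnfsf9 difference with 0. With 10% these were 0, 1 and 0, and the late Tnf rise in WT was called with 2. With time 0 taken from the wells of the same ligand label, 5 members were called at time 0, the early Tnf rise in KO with 2, the late Tnf rise in WT with 2, late Tnfrsf1a in WT with 1, late Traf1 with 1 in WT and 2 in KO, early Tnfsf9 in WT with 5 and its difference with 0. With other time classes (1 to 1.5 h early, 3 to 4 h late), the late Tnf rise in WT was called with 7, the late Tnf difference with 1, Tnfrsf1a in KO with 1, the Tnfrsf1b difference with 2, Tnfsf9 in KO with 2 and its late difference with 1, Traf1 in WT with 6 and the early Tnfsf9 difference with 0.

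Other alternatives were chosen after seeing the data, as were the early Tnfsf9 counts. With each genotype fitted alone, Tnf was called with 8 ligands for the early rise in WT and 0 in KO, 3 for the fall in WT and 0 in KO, and 8 for the late rise in WT and 1 in KO. Late Tnfrsf1a in WT was called with 4, late Tnfsf9 in KO with 2 and late Traf1 in WT with 7. With the CpG and Pam3Cys wells of WT replicate 2 left out of time 0, 1 member was called at time 0 and late Traf1 in WT with 6.

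Some signs turned. With time 0 of the same ligand label the early difference was 0.48 for Tnfsf9 with CpG, where the KO time 0 wells held 0 and 1 counts. For Tnf it was then -0.54 with LPS and -0.22 with Zymosan. With other time classes it was -0.43 for Tnf with LPS and -0.17 with MDP/LPS. The late Tnf change with LPS in KO (0.10) was -0.05 with wells, between -0.01 (without KO replicate 1) and 0.21 (without KO replicate 2) on leaving out a plate, -1.01 with time 0 of the same label and -0.03 with other time classes.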
